A study of Mus musculus with 32 samples.

Results

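The 9 genes described here encode proteins of central myelin or enzymes that make its lipids: Mbp, Mog, Mag, Cnp, Mobp, Cldn11, Fa2h, Ugt8a and Mal. They were chosen by name, and every array probe annotated to one of them was taken, which gave 16 of 25697 probes and 9 of 16593 named genes. Mbp and Mobp were read by 3 probes each, Mog, Cnp and Mal by 2 each, and Mag, Cldn11, Fa2h and Ugt8a by 1 each. Probe 1 of a gene is the one with the highest mean level over the 32 arrays.

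Myelin is the multilayered membrane that oligodendrocytes wrap around axons of the brain and spinal cord, and it speeds the conduction of impulses. Oligodendrocytes arise from dividing precursors, and most of the rodent forebrain is myelinated after birth. In the olfactory bulb the axons of the projection neurons acquire myelin, while the incoming axons of the olfactory sensory neurons stay unmyelinated and are enclosed by olfactory ensheathing glia.

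RNA from mouse olfactory bulb was measured on 32 bead arrays, 8 in each of 4 groups, on a mixed strain background of C57/BL6, 129/Ola and CD1. At E18.5, an embryonic age shortly before birth, the controls carried Tshz1 GFP/+ and the mutants Tshz1 GFP/delta, all with wild-type Nestin (+/+), so a GFP allele was present in both groups. At postnatal day 30 (P30) every sample carried Nestin +/Cre, the controls with Tshz1 flox/+ and the mutants with Tshz1 flox/GFP, so the GFP allele was present only in the mutants. Nestin-Cre is known to act in neural progenitors, from which oligodendrocytes also derive, and less in cells of other origin such as microglia and vessels. Tshz1 encodes a zinc finger transcription factor. The P30 control and mutant labels were exchanged by the submitters in a later correction and are used as corrected, and because no probe was named Tshz1 the labels were not checked against the targeted gene. The study compared mutants with controls at each age. The sources do not say that replicates were separate animals, so p-values measure the spread between these samples, which may be technical.

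Each age occupied its own pair of array chips, with 4 controls and 4 mutants on each chip. Between 40.1% and 55.2% of all probes were detected on an array, which here means a detection p under 0.05, and the median raw intensity of an array ran from 132 to 181 at the earlier age and from 100.2 to 130 at the later one. The bulb neuron markers Gad1, a GABA-synthesizing enzyme, and Tbr1, a transcription factor of projection neurons, were detected on all 32 arrays and on all but 1 array. P30 mutants 1 and 2 stood apart on the first principal component of their age (61.6 and 56.4, against -25.5 to 27.4 for the other 14 arrays), and they had the lowest shares of detected probes. E18.5 controls 6 and 8 lay farthest out at their age (31.1 and 33.4). Many of the changes are also given without these arrays, while most of those of the other gene lists are given only with them. Precision is limited throughout by how many arrays each group had.

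The sequence before the transcription start is shown for 5 of the genes. Of these, Mobp, Mog, Mag and Cnp hold letters of the Sox or Myrf motifs. Cldn11, the gene not called with age, holds neither, and neither do Ugt8a and Mal, which were higher at P30. The part of these letters in the change with age was not tested. Each sequence is the 250 bases before a RefSeq transcription start (GRCm38.p6), 5′ to 3′ on the gene's strand. Capitals mark ACAAAG or ACAATG, as recognized by Sox factors such as Sox10, or CTGGCAC or CTGGTAC, as recognized by Myrf, the factor that drives myelin genes, searched on both strands. No marked Sox match overlapped a Myrf match. The windows are chr9:120149492-120149741 (plus strand) for Mobp, chr17:37023399-37023648 (minus strand) for Mog, and chr7:30914864-30915113 (minus strand) for Mag, the second of its 3 starts. They are chr11:100574689-100574938 (plus strand) for Cnp and chr3:31149670-31149919 (plus strand) for Cldn11.
Mobp: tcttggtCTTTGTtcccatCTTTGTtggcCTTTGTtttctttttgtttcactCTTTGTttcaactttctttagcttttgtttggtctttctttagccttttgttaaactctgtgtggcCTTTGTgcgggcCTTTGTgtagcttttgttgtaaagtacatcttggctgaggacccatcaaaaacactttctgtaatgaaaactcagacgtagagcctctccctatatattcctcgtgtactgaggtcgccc
Mog: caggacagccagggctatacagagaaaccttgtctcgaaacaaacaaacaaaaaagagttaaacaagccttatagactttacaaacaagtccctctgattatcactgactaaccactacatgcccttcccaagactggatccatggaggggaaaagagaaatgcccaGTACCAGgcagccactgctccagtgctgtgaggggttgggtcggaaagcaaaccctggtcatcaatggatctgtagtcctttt
Mag: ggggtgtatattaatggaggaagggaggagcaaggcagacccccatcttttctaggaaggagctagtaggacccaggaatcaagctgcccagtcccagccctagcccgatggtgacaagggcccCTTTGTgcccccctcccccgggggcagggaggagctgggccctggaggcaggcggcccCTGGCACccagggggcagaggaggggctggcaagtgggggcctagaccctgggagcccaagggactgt
Cnp: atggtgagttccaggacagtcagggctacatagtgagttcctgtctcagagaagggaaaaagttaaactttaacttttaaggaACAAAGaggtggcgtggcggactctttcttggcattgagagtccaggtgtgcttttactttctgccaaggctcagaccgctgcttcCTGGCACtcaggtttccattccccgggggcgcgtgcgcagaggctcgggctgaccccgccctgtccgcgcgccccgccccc
Cldn11: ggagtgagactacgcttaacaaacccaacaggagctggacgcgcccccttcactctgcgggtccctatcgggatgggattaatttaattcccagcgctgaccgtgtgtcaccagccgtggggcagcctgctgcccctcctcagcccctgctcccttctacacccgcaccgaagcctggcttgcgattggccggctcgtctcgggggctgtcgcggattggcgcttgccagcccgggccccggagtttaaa

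Promoter entries were matched for 7 of the 9 genes, without Mbp and Fa2h, and gave 9 windows because of the 3 starts of Mag, a pair of which overlap. Myrf letters lay in 4 of the 9 windows, for Mog, Mag and Cnp (3 of 7 genes), against 5.93% of 32851 mouse windows of the same length. Sox letters also lay in 4 of the 9 windows, for Mobp, Mag and Cnp (3 of 7 genes), against 25.2% of all windows. The Myrf and Sox matches of Mag are the same letters in its overlapping pair of windows, counted once for each window. The percentages are of windows, not of genes. The Mobp window held 6 of them, from 243 to 120 bases before the start (positions -243 to -120). The windows of Cldn11, Ugt8a and Mal held neither set of letters. E-box letters CAGCTG and TATAAA were found in 0 of the 9 windows, against 13% and 12.4% of all windows. GGGCGG (or its complement CCGCCC) lay in 2 of the 9, those of Cnp and Ugt8a, against 32.7%. These matches are descriptions of letters, not of binding.

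Between E18.5 and P30, 8 of the 9 myelin genes were at least 2-fold higher in the control bulbs, from 3.10-fold for Cnp to 94.4-fold for Mbp, and Cldn11 was not called. On the normalized scale every P30 control lay above every E18.5 control for these 8 genes, against 11.6% of all genes tested. By the rule used for these calls (limma adjusted p under 0.05, two-sided, and at least 2-fold), 11.3% of the 11312 genes tested were higher and 12.6% lower. The median log2 change of the 9 genes was 5.20, against -0.01 over all genes tested. It was 4.91 when every value below the lowest detected signal of its array was raised to that signal, which touches Fa2h, Mog, Mobp and Mag and was chosen after the data were seen. With median scaling in place of quantile normalization, called genes split into 557 higher and 3447 lower, against 1278 and 1420. In bulk tissue, more cells of a type and more RNA per cell cannot be told apart. Age also cannot be told apart from chip or from the different Tshz1 and Nestin alleles of the control groups, so these values describe those sets of arrays.

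**Figure D1:**
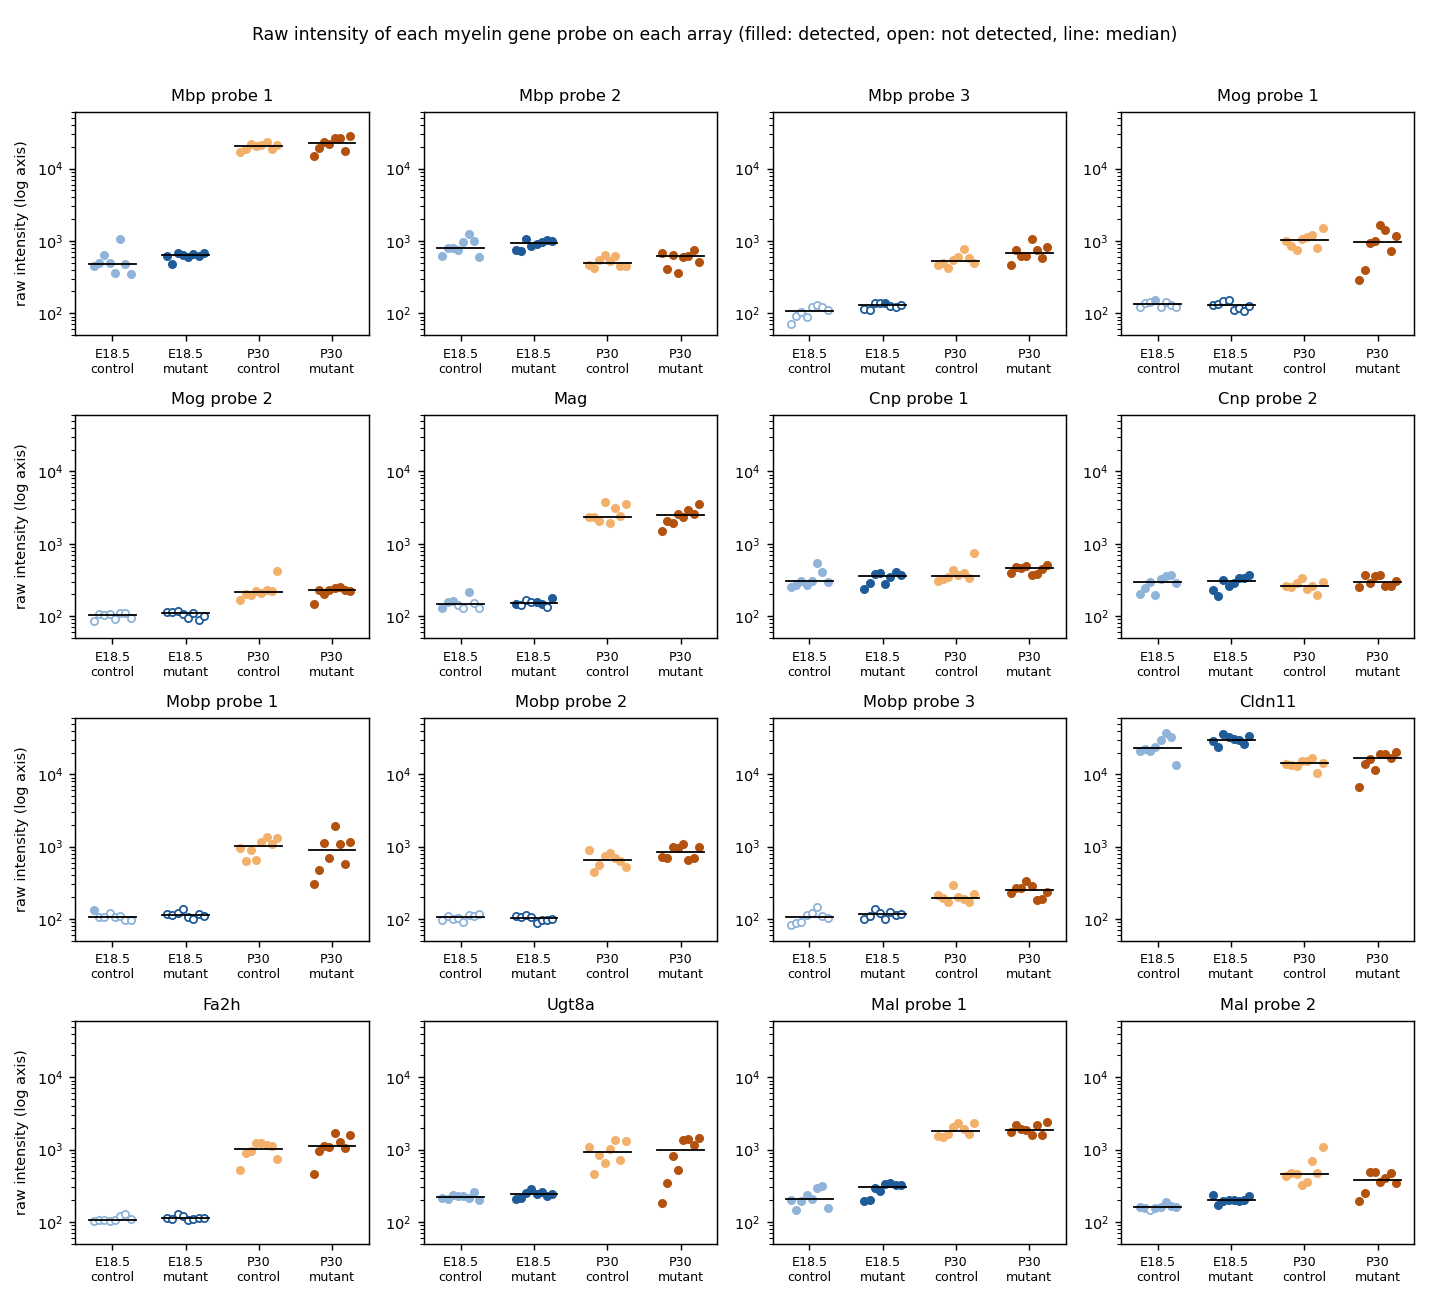
Raw intensity (log axis) of the 16 probes of the 9 myelin genes on each of the 32 arrays, by group; filled points are detected, open points not detected, and lines mark group medians. Mbp probe 1 rises from a control median of 484 to 20702, while the Cldn11 probe is bright at both ages, with control medians of 23184 and 14246.

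Mbp encodes myelin basic protein, which holds the inner faces of compact myelin together. Probe 1 of Mbp had raw intensities of 347 (lowest), 484 (median) and 1069.8 (highest) on the 8 E18.5 control arrays and of 16769, 20702 and 23501 on the 8 P30 control arrays. Every P30 array lay above every E18.5 array, and the log2 change was 6.56 (SE 0.16), a 94.4-fold difference (95% interval 75.9 to 117, limma adjusted p = 1.66e-28). Probe 3 of Mbp was detected on 0 of 8 E18.5 control arrays and on 8 of 8 at P30, and was at least 16.1-fold higher at P30 (limma adjusted p = 2.33e-23 over all probes). A fold called "at least" sets the dim group at the lowest signal of any probe that was detected.

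Probe 2 of Mbp behaved otherwise. It read 602, 795 and 1232 at E18.5 and 424, 492 and 641 at P30 (lowest, median, highest raw intensity of the controls), so it was detected on every array at both ages. After normalization it rose by 0.50 on the log2 scale (SE 0.15, 95% interval 0.19 to 0.81, limma adjusted p = 0.0056), less than 2-fold. Its raw median fell, so the direction of this change rested on the normalization. The Mbp gene is also known to give golli transcripts from an upstream start in cells other than oligodendrocytes. The transcripts that each probe reads are not given in the sources used here.

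Among the adhesion and surface proteins, Mag, a sialic acid-binding protein of the membrane next to the axon, read 129, 145 and 217 in E18.5 controls, where 4 of 8 arrays detected it. In P30 controls it read 1958, 2377 and 3781. The groups did not overlap, and the log2 change was 6.26 (SE 0.15), or 76.9-fold (limma adjusted p = 3.73e-28), and 6.19 with dim values raised. Mog encodes a glycoprotein on the outermost myelin layer, and its probe 1 was detected on 1 of 8 E18.5 control arrays (120.3, 133 and 151) and on all P30 arrays (742, 1017 and 1486). Its log2 change was 5.20 (SE 0.21), against 7 arrays that did not detect it, and 4.97 with dim values raised to the lowest detected signal. Probe 2 of Mog, detected on 0 of 8 E18.5 control arrays, was at least 4.85-fold higher at P30.

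Mobp, a small basic protein of compact central myelin, showed the same order on 3 probes. Probe 1 of Mobp read 96.97, 108 and 132 at E18.5, with 1 of 8 control arrays detected, and 626, 1023 and 1361 at P30, a log2 change of 5.55 (SE 0.22), or 4.92 with dim values raised to the lowest detected signal. Probes 2 and 3 of Mobp were detected on 0 of 8 E18.5 control arrays and were at least 19.9-fold and at least 4.30-fold higher at P30. Mal, a proteolipid of membrane rafts that takes part in sorting to myelin, was detected on all 8 E18.5 control arrays by probe 1 and on 7 by probe 2. Probe 1 of Mal read 148, 205 and 314 at E18.5 and 1475, 1778 and 2329.85 at P30, and the log2 changes of probes 1 and 2 were 4.91 (SE 0.20) and 3.54 (SE 0.18).

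Both lipid enzymes were higher at P30. Fa2h, which adds the hydroxyl group to the fatty acids of myelin galactolipids, was detected on 0 of 16 arrays at E18.5, where the controls read between 103 and 128. At P30 the controls read 519, 1031 and 1232, at least 29.6-fold higher (limma adjusted p = 9.97e-25). Ugt8a makes galactosylceramide, the lipid that Fa2h products enter, and it was detected on every array at both ages. Its raw intensities were 201, 222 and 261 in E18.5 controls and 456, 928 and 1366 in P30 controls, a log2 change of 3.65 (SE 0.28).

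Cnp, a phosphodiesterase of the cytoplasm-filled parts of myelin, was detected at both ages and changed less. Its probe 1 went from 7.49 ± 0.28 to 9.12 ± 0.31 on the log2 scale (mean ± SD, n = 8 per group), a log2 change of 1.63 (SE 0.17, limma adjusted p = 2.2e-10), and probe 2 of Cnp gave 1.16 (SE 0.20). The raw intensities of Cnp probe 1 overlapped between the ages (251, 302 and 548 against 306, 358 and 746), so its change rested on the normalization. With median scaling, under which the median of all genes was -0.53, Cnp gave 0.90 and was no longer 2-fold, which left 7 of the 9 genes.

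Cldn11 encodes claudin-11, the tight junction protein of central myelin, which is also made by barrier cells of the meninges. It read 13589.5, 23184 and 36991 in E18.5 controls and 10333.5, 14246 and 16819 in P30 controls, and the groups overlapped. The log2 change was 0.18 (SE 0.14, 95% interval -0.11 to 0.48, limma adjusted p = 0.273), so a rise of more than 1.39-fold lay outside the interval. It was 0.11 without E18.5 controls 6 and 8. With median scaling, under which the median of all genes was -0.53, the direction turned, to -0.36 (limma adjusted p = 0.0402). Of the 8 meninges and fibroblast markers tested, 7 were lower at P30, Col1a1, Col1a2, Col3a1, Dcn, Lum, Igf2 and Slc22a6, and Ptgds was higher. The median log2 change of these 8 markers in the same fit was -1.54, against -0.01 over all genes tested. Their part in the level of Cldn11 was not tested.

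**Figure D2:**
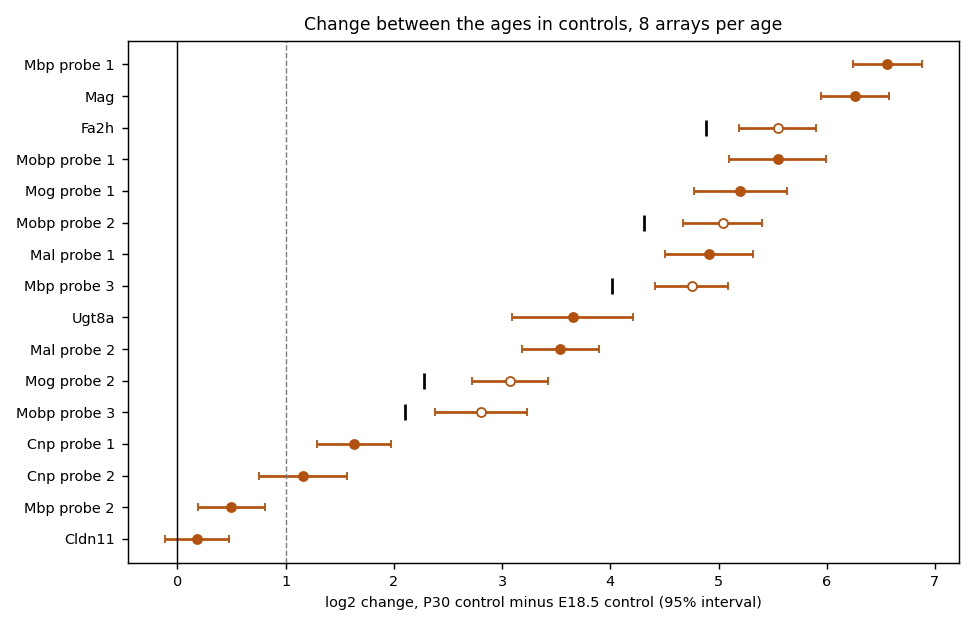
Log2 change from E18.5 controls to P30 controls for each of the 16 myelin probes with its 95% interval, 8 arrays per age; open points are probes detected on 0 of 8 E18.5 controls, black ticks are their bounds, and the dashed line marks 2-fold. The changes run from 0.18 for Cldn11 to 6.56 for Mbp probe 1, and 14 of 16 probes were called higher, against 11% of all probes.

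In the E18.5 mutants none of the myelin genes that could be tested passed. The probes of Mog, Mobp and Fa2h and probe 3 of Mbp were too dim (fewer than 4 of 16 arrays detected), which left 6 of the 9 genes and 9 of the 16 probes, and 0 of the 6 genes were called, against 0.581% of the 10852 genes tested. The changes of the 6 genes ran from -0.15 for Mag to 0.45 for Mal, with a median of -0.04 against -0.01 over all genes, and 1 had an unadjusted p under 0.05 (limma, two-sided). For 0 of the 6 genes did mutants and controls not overlap, against 0.341% of all genes. Of the 9 probes 0 were called, against 0.484% of all probes, and 2 had an unadjusted p under 0.05 (limma), those of Cldn11 and Mal probe 2.

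Cldn11 had raw intensities of 24115, 29996 and 35919 (lowest, median, highest) in the E18.5 mutants, against 13589.5, 23184 and 36991 in the controls. The mutant median was higher and the groups overlapped. The log2 change was 0.28 (SE 0.11, 95% interval 0.06 to 0.51, limma adjusted p = 0.433), or 0.34 on the first chip and 0.23 on the second, and 0.21 without controls 6 and 8. Mal gave 0.45 with probe 1 (SE 0.23, 95% interval -0.04 to 0.93, limma adjusted p = 0.594), 0.07 on the first chip and 0.83 on the second, and 0.39 with probe 2 (SE 0.15, adjusted p = 0.497 over all probes).

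The other genes lay nearer to 0 at E18.5. Mbp, represented at this age by its probe 2, gave -0.00 (SE 0.09), with a 95% interval of 0.874-fold to 1.14-fold, and its probe 1 gave 0.20 (SE 0.17). Cnp gave -0.13 (SE 0.15), Mag -0.15 (SE 0.15) and Ugt8a -0.07 (SE 0.13). Without controls 6 and 8 they gave -0.011, -0.073 and -0.14, in that order. Of these 4 genes the widest interval reached from 0.719-fold to 1.13-fold, for Mag, so a 2-fold difference in either direction lay outside each of them.

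In the P30 mutants, with all 9 genes tested, again 0 were called, against 4.33% of 9928 genes, while 0 of the 9 separated mutants from controls without overlap, against 1.12% of all genes. The changes ran from -0.32 for Ugt8a to 0.28 for Fa2h, with a median of 0.12 against 0.01 over all genes. Adjusted p-values lay between 0.589 and 0.899 (limma, two-sided), and 0 of the 9 had an unadjusted p under 0.05. The missed threshold does not show equal levels, and the intervals bound what was measured.

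Mbp read 14936, 22765 and 28426 in the P30 mutants against 16769, 20702 and 23501 in the controls. The ranges overlapped, and the log2 change was 0.13 (SE 0.16, 95% interval 0.868-fold to 1.38-fold, limma adjusted p = 0.783). Mag gave -0.08 (SE 0.18, 95% interval 0.727-fold to 1.23-fold), Cldn11 0.15 (SE 0.18), Mal 0.12 (SE 0.19), Cnp 0.25 (SE 0.19) and Fa2h 0.28 (SE 0.23). Without mutants 1 and 2 the change of Cnp was 0.061 (limma adjusted p = 0.9) and that of Cldn11 0.26, while Mbp gave 0.18, Mag -0.12 and Fa2h 0.34. By the brightest probe of each, the intervals of these 6 genes all lay within 2-fold in either direction. That of Mal probe 2 ran from 0.498-fold to 0.896-fold, which reached past 2-fold lower.

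Ugt8a, Mog and Mobp had the lowest changes, and a few of the mutant arrays were low for them. Ugt8a read 185, 981 and 1457 in the mutants and 456, 928 and 1366 in the controls. The lowest values came from mutants 1 (185) and 2 (350), the arrays that stood apart, and both lay below all other 14 P30 arrays. The log2 change of Ugt8a was -0.32 (SE 0.34, 95% interval 0.488-fold to 1.31-fold, limma adjusted p = 0.734), -0.98 on the first chip, which held both arrays, 0.35 on the second, and 0.13 without them.

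Mog gave -0.30 (SE 0.27, 95% interval 0.555-fold to 1.19-fold), with -0.69 on the first chip, 0.10 on the second, and 0.015 without mutants 1 and 2. Mobp probe 1 gave -0.29 (SE 0.27, 95% interval 0.552-fold to 1.204-fold) and -0.07 without them. On the log2 scale mutants 1, 2 and 7 read 8.30, 8.92 and 8.85 with Mog probe 1, below the lowest control (9.40), and 8.40, 9.31 and 8.46 with Mobp probe 1, below the lowest control (9.35). Mutant 7 was not low for Ugt8a (9.54). Ugt8a was the only one of the 16 probes on which mutants 1 and 2 both lay below all other P30 arrays. With Mal probe 1 they read 11.24 and 11.71, above every other P30 array, the highest of which read 11.09. Leaving them out also turned Mal, from 0.12 to -0.074, and left 0 of 9 genes called.

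The probes of a gene did not always point the same way at P30. Mobp probes 2 and 3 gave 0.46 (SE 0.23, limma adjusted p = 0.342 over all probes) and 0.39 (SE 0.24, adjusted p = 0.47), where probe 1 was negative. Mbp probe 3 gave 0.46 (SE 0.21, adjusted p = 0.277), and Mal probe 2 gave -0.58 (SE 0.20, adjusted p = 0.127), where Mal probe 1 was positive. Without mutants 1 and 2, Mobp probes 2 and 3 gave 0.34 and 0.21 as plain differences of group means. In the same way Mbp probe 3 gave 0.34 and Mal probe 2 gave -0.43. Of the 16 probes, 0 passed, against 4.01% of all 12950 probes, and 2 had an unadjusted p under 0.05, Mal probe 2 and Mbp probe 3.

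**Figure D3:**
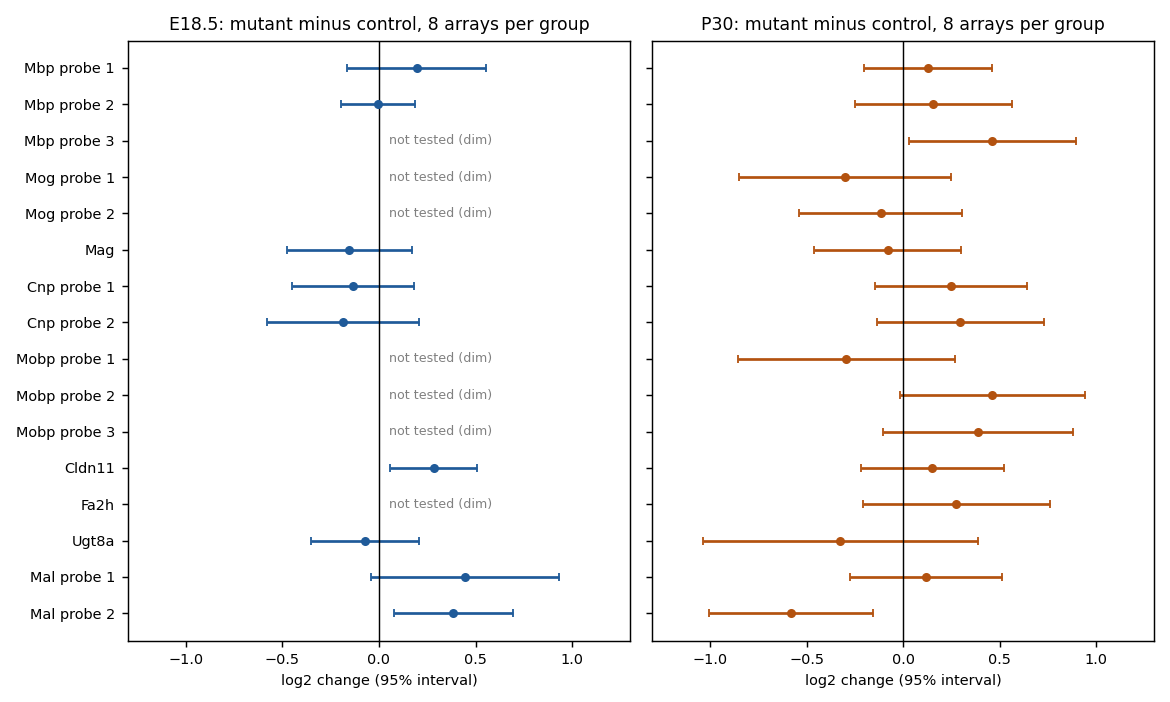
Log2 change of each myelin probe in mutants against controls, at E18.5 (left) and P30 (right), with 95% intervals and 8 arrays per group; probes too dim at E18.5 are marked as not tested. At P30 the estimates run from -0.58 (Mal probe 2) to 0.46 (Mbp probe 3 and Mobp probe 2), and none of the probes shown passed after adjustment.

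Whether the mutant effect differed between the ages was tested in one fit over all 32 arrays. At the level of genes 0 of the 9 passed, against 1.85% of 11312 genes, with differences from -0.29 for Mal to 0.37 for Cnp (P30 effect minus E18.5 effect on the log2 scale) and adjusted p-values between 0.527 and 0.945 (limma, two-sided). None of the 9 had an unadjusted p under 0.05. The alleles also differ between the ages, so a difference would cover both.

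With a separate test of each probe, 1 of the 16 probes passed, Mal probe 2, against 1.62% of 15105 probes. It read 147, 161 and 191 in the E18.5 controls (lowest, median, highest raw intensity) and 170.3, 200.1 and 236 in the mutants of that age. At P30 it read 328, 465 and 1079 in the controls and 197, 382 and 491 in the mutants. The mutants were somewhat higher before birth and lower at P30, with overlap at both ages. The difference was -0.91 (SE 0.25, limma adjusted p = 0.0493), and it no longer passed in 29 of 39 alternatives, over which the adjusted p ran from 0.0202 to 0.145. Without the 4 arrays that stood apart it was -0.83 (adjusted p = 0.0889). Mal probe 1 gave -0.29 (SE 0.28, adjusted p = 0.728).

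Over the 16 P30 arrays, the myelin genes varied together within the groups only in part. Each gene was taken by its brightest probe, probe 1 where it has several, as the deviation from its own group mean. Of 36 pairs compared, 8 passed for Pearson's r and 4 for Spearman's rho (100000 permutations, two-sided, adjusted over the pairs). The share of pairs of all genes that would pass was not computed, so these counts are not shown to be particular to the myelin genes. The first principal component held 32.9% of the variance of the P30 arrays. Mobp and Mog had the highest r, 0.794 (permutation adjusted p = 0.0108), with rho 0.685 (permutation adjusted p = 0.0385), 0.652 on the first chip and 0.879 on the second. Without mutants 1 and 2 it was 0.728, and without the 2 arrays farthest from the median of Mobp it was 0.548. The pairs were not computed with the other probes, so each r holds only for the probes used. On mutant 1 Mobp probe 1 read 8.40, below its mutant mean of 9.52. Mobp probe 2 read 9.98 there, above its mutant mean of 9.64.

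The other pairs that passed for r were Cldn11 with Mbp (0.757), Fa2h with Mbp (0.755), Mog with Ugt8a (0.742), Mobp with Ugt8a (0.732), Cldn11 with Ugt8a (0.731), Cnp with Mal (0.73) and Mbp with Mobp (0.677). Their permutation adjusted p lay between 0.0119 and 0.0161. All 8 pairs kept a positive sign on each chip and without mutants 1 and 2, where r fell to between 0.504 and 0.728. Without the 2 arrays farthest in the first gene of each pair r ran from 0.303 (Mbp with Mobp) to 0.794 (Cnp with Mal). For rho, Cldn11 with Mbp (0.732), Cnp with Mal (0.768) and Mobp with Ugt8a (0.774) passed beside Mobp with Mog. The arrays share chip and tissue source, and what makes genes vary together was not tested.

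By probe 1 of each, Cnp and Mal passed with each other and, among the pairs tested, with no other myelin gene. Cnp correlated with Ugt8a at r = -0.522 (permutation adjusted p = 0.0985), which did not pass, with -0.368 without mutants 1 and 2. On mutant 2 the deviations of Cnp and Mal were 0.75 and 0.81, while those of Mog and Ugt8a were -0.64 and -0.61. On mutant 1 those of Ugt8a and Mog were -2.11 and -1.26. These deviations, and the r of Cnp with Mal, hold for probe 1, and the pair was not computed with probe 2. On mutant 1 Mal probe 1 read 11.24, above its mutant mean of 10.90. Mal probe 2 read 7.41 there, below its mutant mean of 8.14. By probe 2, Mal was below and Mog above the mutant mean on mutant 2 (7.96 against 8.14, and 7.72 against 7.08). Cnp probe 2 was above it, as probe 1 was (8.80 against 7.89).

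**Figure D4:**
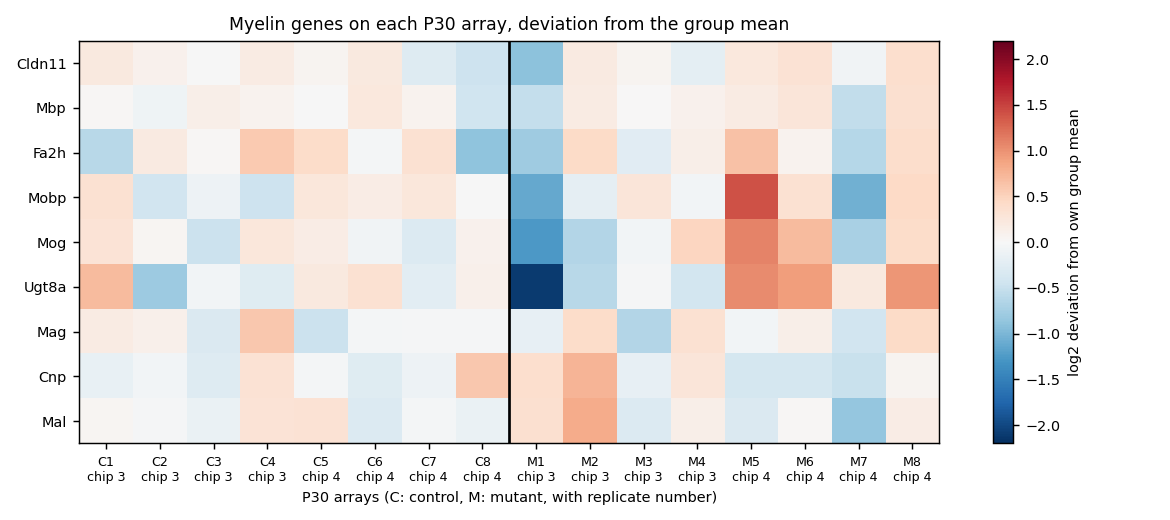
Log2 deviation of each of the 9 myelin genes from the mean of its own group on the 16 P30 arrays, controls (C1 to C8) at left and mutants (M1 to M8) at right, with the chip of each array. Each gene is shown by its brightest probe, probe 1 where it has several. By these probes mutant 1 is low for Ugt8a (-2.11), Mog (-1.26) and Mobp (-1.12) but not for Cnp (0.36) and Mal (0.34). Other probes differ: Mal probe 2 was lowest of the P30 arrays on mutant 1 (7.41 on the log2 scale). Mobp probes 2 and 3 read 9.98 and 7.80 there, within the range of the controls.

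The genes most like the mean of the 9 myelin genes over the 16 P30 arrays, by Pearson's r of the deviations, were Enc1 (0.883), Ncald (0.879), Abi3bp (0.839), Syne1 (0.826) and Tyro3 (0.820). Without mutants 1 and 2 their r lay between 0.770 and 0.881, and without the 2 arrays farthest from the median of the myelin mean between 0.575 (Syne1) and 0.811 (Ncald). Over the 16 E18.5 arrays and the 6 genes tested there, they were Plscr1 (0.917), Tcte3 (0.829), Eci3 (0.827), Fam117a (0.810) and Ppp1r15b (0.809), with r between 0.597 (Ppp1r15b) and 0.846 (Plscr1) without the 2 farthest arrays. They were picked as the highest of all genes tested, so no p is given.

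Other genes of oligodendrocytes followed the myelin genes with age only in part. Of 13 other myelin proteins tested, 6 were higher in P30 than in E18.5 controls and 1, Pmp22, a protein best known from peripheral myelin, was lower (-1.06). Of 16 other genes of mature oligodendrocytes, 10 were higher and 1, Mcam, was lower (-2.90). Of 12 other genes of myelin lipid synthesis and turnover, 0 passed in either direction, unlike Fa2h and Ugt8a. Of 6 precursor genes 3 were higher, among them Bcas1, a gene of newly forming oligodendrocytes (4.23), and Pdgfra, the growth factor receptor of dividing precursors, was lower (-1.40). Of 6 transcription factors, Olig1 (1.69) and Id4 (1.11) were higher and Zfp536 was lower (-1.24). Against these counts, 11.3% of all genes were higher and 12.6% lower.

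In the mutants 1 gene of these lists passed, at P30. At E18.5, 0 of 11 other myelin proteins, 0 of 11 lipid genes, 0 of 12 mature oligodendrocyte genes, 0 of 5 precursor genes and 0 of 6 transcription factors passed, against 0.581% of all genes, a share at which lists of this size would hold few or no calls. The smallest p-values by list were those of Plekhb1 (0.41, adjusted p = 0.473) and Pmp22 (0.23, adjusted p = 0.684), Degs1 (0.23, adjusted p = 0.56) and Elovl1 (0.17, adjusted p = 0.699), and Anln (0.34, adjusted p = 0.349) and Qdpr (0.18, adjusted p = 0.699). Bcas1 (-0.21, adjusted p = 0.603) and Pdgfra (0.17, adjusted p = 0.697) led the precursor list, and Nkx2-2 (-0.52, adjusted p = 0.116) and Sox8 (0.66, adjusted p = 0.262) the transcription factors, all by limma.

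At P30, 0 of 12 other myelin proteins, 0 of 12 lipid genes, 0 of 16 mature oligodendrocyte genes and 0 of 6 precursor genes passed, against 4.33% of all genes. The smallest p-values were those of Gpm6b (0.39, limma adjusted p = 0.231) and Pmp22 (0.40, adjusted p = 0.448), and of Gltp, a glycolipid transfer protein (0.53, adjusted p = 0.198), and Elovl1, a fatty acid elongase (0.40, adjusted p = 0.402). Hapln2 (0.31, adjusted p = 0.452) and Apod (0.25, adjusted p = 0.473) followed among mature genes, and Gpr17 (-0.20, adjusted p = 0.754) and Pdgfra (0.15, adjusted p = 0.796) among precursor genes. The list medians were 0.19, 0.20, 0.14 and -0.01, against 0.01 over all genes.

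Among the 6 transcription factors tested at P30 1 rose, Id4, an inhibitor of basic helix-loop-helix factors that is also known from astrocytes and progenitors. It read 616, 841 and 1254 in the controls and 804, 1381 and 1869.9 in the mutants, and the groups overlapped. The log2 change was 0.83 (SE 0.19, limma adjusted p = 0.013), 0.65 on the first chip (adjusted p = 0.303) and 1.01 on the second (adjusted p = 0.047), and 0.79 without mutants 1 and 2 (adjusted p = 0.021). Nkx2-2, a homeodomain factor of oligodendrocyte differentiation, gave 0.72 (SE 0.24, adjusted p = 0.0939) at P30 and -0.52 (SE 0.13) at E18.5, and the difference between the ages passed (1.27, SE 0.30, adjusted p = 0.0161). Its raw medians were 350 (controls) and 313 (mutants) at E18.5, and 228 (controls) and 389 (mutants) at P30. The second probe of Nkx2-2, detected on 6 of 32 arrays, gave a difference of 0.42 (SE 0.19, adjusted p = 0.342 over all probes).

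**Figure D5:**
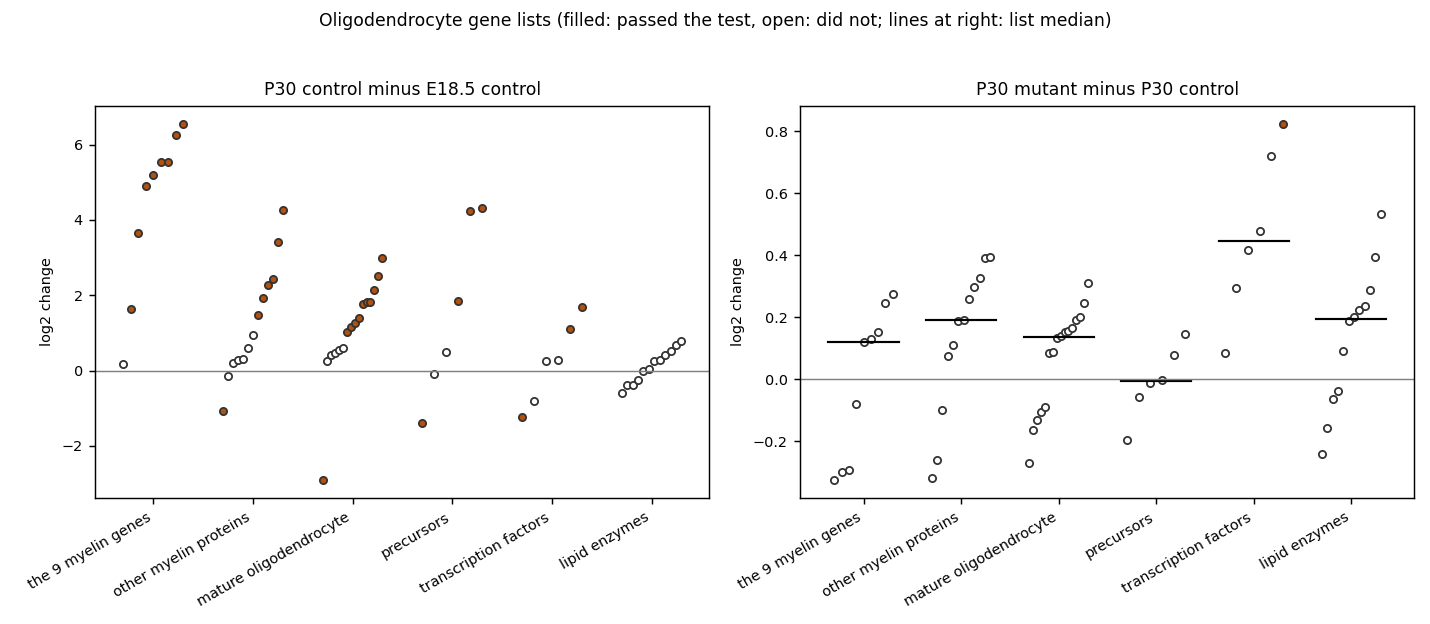
Log2 change of each tested gene of the 9 myelin genes and 5 other oligodendrocyte lists, from E18.5 to P30 controls (left) and from P30 controls to P30 mutants (right); filled points passed the test and lines at right are list medians. At left the myelin genes reach 6.56, while at right the only filled point is Id4 at 0.83.

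Markers of other cells moved in the P30 mutants, where 4.33% of all genes were called. Of 7 microglia markers tested, 4 rose, C1qa (1.06), C1qb (1.06), C1qc (0.96) and Trem2 (0.80). The log2 of the summed level of all 7 ran from 10.6 to 11.5 in controls and from 11.3 to 12.7 in mutants. Of 8 astrocyte markers 1 rose, Gfap (1.48, SE 0.19). Of 8 markers of ensheathing glia and Schwann cells, 2 rose, among them Npy (0.76), and Egr2, a factor of peripheral myelination that neurons also induce on activity, fell by 2.39 on the log2 scale (SE 0.30, limma adjusted p = 2.59e-05). Of 8 markers of mature neurons, Slc17a7 (1.12) and Tbr1 (0.95) rose and Rbfox3 fell by 1.33, while 0 of 7 meninges, 0 of 3 endothelial and 0 of 2 blood markers passed. At E18.5 the same lists of other cells gave 2 calls, both lower, among 7 mature neuron markers, against 0.581% of all genes. The part of these markers in the values of the myelin genes was not tested.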

How the data were processed

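Total RNA of 32 olfactory bulb samples had been labelled as biotinylated cRNA and read on Illumina bead arrays. The authors used GenomeStudio (no version stated), per the submitters' processing notes. Per the file headers, the deposited raw table gives 25697 probes, each with its average intensity on every array and the p-value of its detection. The intensity values of the deposited normalized table served only for an alternative, with those below 16 set to 16 before log2. Of the probes, 23978 carried 1 gene name and 1719 none. The genome build of the probe annotation is not stated.

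Raw intensities were background-corrected, quantile normalized and put on a log2 scale with neqc (limma 3.58.1, R 4.3.3, offset 16), within each age for the mutant comparisons and over all arrays for the others. Probes detected on at least 4 arrays entered. The brightest probe of each gene was tested with lmFit and eBayes, two-sided, adjusted by Benjamini-Hochberg over all genes tested, with a threshold of 0.05 and, for age, at least 2-fold. Every probe was also tested on its own. Groups and chips came from the labels. The fits were first tested on simulated data. Correlations and promoter searches used Python 3.11.15 with numpy 2.4.6.

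The 9 genes and the 12 lists of other genes were chosen with earlier results of these data known. Named by rule were all probes of the 9 genes, the other oligodendrocyte and myelin genes that passed in a mutant comparison or in the difference between the ages or had the 2 smallest p of their list, and the 5 genes most like the 9 at each age. The list genes named for the change with age, the markers of other cells and the chip and array values given beside single genes were chosen after their values were seen. Replicate numbers recur in controls and mutants. Same-numbered samples deviated together at E18.5 in all 8 pairs (r 0.118 to 0.355) but not in all at P30 (-0.0704 to 0.417). They also lay on the same chip, and for many controls the mutant that matched best had another number. These r therefore do not show pairing by number.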

Additional observations from a re-analysis of the deposited data

Results flagged for a closer look

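Cldn11 on P30 mutant replicate 1 read 12.99 on the log2 scale, and the next lowest P30 mutant read 13.68. The gap was 0.542 of the range of its group of 8, above Dixon's critical value for its size, in 1 of 50 groups tested. Chance alone gives about 1 in 20 such groups. The array is one of those that stood apart, and the change of Cldn11 without both of them was 0.26 (limma adjusted p = 0.399).

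Mal probe 2 had a mutant effect at P30 that differed from that at E18.5 by -0.91 (limma adjusted p = 0.0493), with 0.39 at E18.5 and -0.58 at P30, neither of which passed. Mal probe 1 gave a difference of -0.29.

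Nkx2-2 had a mutant effect at P30 that differed from that at E18.5 by 1.27 (limma adjusted p = 0.0161), with -0.52 at E18.5 and 0.72 at P30, neither of which passed. It passed in 38 of 39 alternatives and missed the threshold with median scaling (1.17, adjusted p = 0.103).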

How the results depend on the processing

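No call of a myelin gene in the mutants appeared under any alternative of the gene-level fits, with smallest adjusted p of 0.285 at E18.5, 0.291 at P30 and 0.436 for the difference between the ages. Testing every probe on its own gave 1 gene with a called probe for that difference, Mal. Some uncalled changes turned sign, and the cause was not tested except where given. On the second chip alone E18.5 gave 0.015 for Mag, 0.13 for Mbp and 0.14 for Ugt8a, and the P30 arrays gave -0.10 for Cnp, 0.083 for Mag, -0.083 for Mal, 0.10 for Mog and 0.35 for Ugt8a. On the first chip alone P30 gave -0.19 for Cldn11 and 0.54 for Mobp, whose brightest probe there was probe 2. Leaving out 1 replicate at a time moved Mbp at E18.5 between -0.039 and 0.032 and Mag at P30 between -0.15 and 0.011. Without P30 mutants 1 and 2, an alternative chosen after the data were seen, Mal gave -0.074, Mog 0.015 and Ugt8a 0.13. For the difference between the ages Mag gave -0.054 with median scaling and -0.017 without background correction, and Mog 0.062 with the deposited normalized table. Without the 4 arrays that stood apart it was 0.051 for Cldn11, -0.050 for Mag, 0.025 for Mobp, 0.28 for Mog and 0.25 for Ugt8a. With age, median scaling gave -0.36 for Cldn11 (median of all genes -0.53) and left 7 of 9 genes, and the other settings left 8. With the replicate block 0 myelin genes passed at either age, and it changed no call of them. Counts over all genes moved more: at E18.5 from 63 to 41 on the first chip and 5 on the second, at P30 from 430 to 137 and 194, for the difference from 209 to 84 with median scaling and 364 with chip as a block, and with age from 2698 to 1585 without background correction, 4004 with median scaling and 3415 with the deposited table. Mog, Mobp and Fa2h were too dim at E18.5 to be tested, so a mutant effect on them there was not measurable on these arrays.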
